A study of Homo sapiens with 4 samples.

Results

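The rows described here are the ribosomal DNA precursor RNA45S5 and 6 microRNA precursor genes: MIR663A, MIR663B, MIR3687-1, MIR3687-2, MIR3648-1 and MIR3648-2. They are 7 of the 26830 genes in a table of RNA immunoprecipitation sequencing (RIP-seq) values, and they were taken from it by gene symbol. The set was picked because microRNA rows were lost in the precipitated libraries, so the comparison of precipitated with input RNA is given for them as a description, with no test.

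U2OS, a human osteosarcoma cell line, had been infected with a lentivirus, pmiRNA1-3 x Flag-QKI7, and the GFP-positive population was expanded without further treatment. QKI7 is an isoform of QKI, a STAR-domain RNA-binding protein. The 2 input libraries and the 2 libraries pulled down through the Flag tag (Flag-RIP) all came from such transduced, ultraviolet cross-linked and sonicated cells, so the inputs carry the transgene too. The labels do not say whether replicates 1 and 2 are separate cultures, so p-values cover only the variation among these 4 libraries, which may be technical. Cells without the tag and mock precipitations were not analysed here. The labels name the RNA as rRNA-depleted.

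RNA polymerase I transcribes the ribosomal DNA repeats in the nucleolus into a long precursor. External and internal transcribed spacers are cut out of it to leave the mature 18S, 5.8S and 28S rRNAs. Small nucleolar RNAs and a large set of assembly proteins guide these cuts. MicroRNAs arise from hairpins that Drosha and Dicer cut, but an annotated microRNA gene that lies inside a longer, abundant RNA also collects reads of that RNA.

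Annotation placed the microRNA genes that it listed at sites of different kinds (RefSeq, GRCh38.p14). MIR3648-1 is on chromosome 21 from 8208473 to 8208652, wholly inside the precursor gene RNA45SN2 (8205988 to 8219302). It starts 2485 bases after the start of that gene and ends 978 bases before the 18S gene RNA18SN2, which puts it in the spacer ahead of the 18S rRNA. MIR3648-2 is on the same chromosome from 8986999 to 8987178, with the microRNA gene MIR10396A 438 bases away. MIR663B is on chromosome 2 from 132256966 to 132257080, on the minus strand, inside the spans of ANKRD30BL and of the pseudogene LOC107985804 (132252320 to 132259573). Another pseudogene, LOC110467533, which RefSeq also names RNA18SP, lies 770 bases from it and a 5.8S pseudogene, RNA5-8SP5, lies 3660 bases away. MIR663A is on chromosome 20 from 26208186 to 26208278, inside its noncoding host gene MIR663AHG (26187019 to 26209233). The table lists no rRNA gene or pseudogene within 10 kb of it. The symbol RNA45S5 is listed there as a synonym of 2 precursor genes, RNA45SN4 and RNA45SN5, so no position is given for it. No entry was found for MIR3687-1 or MIR3687-2, so whether they lie in a precursor gene was not established.

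The mature sequences are shown for what they share. RefSeq (GRCh38.p14) entries were matched for 3 of the 6 microRNA rows: miR-663a at chr20:26208243-26208264 on the minus strand, miR-663b at chr2:132256970-132256991 on the minus strand and miR-3648, under MIR3648-2, at chr21:8987026-8987046 on the plus strand. The capitals mark the seed, bases 2 to 8, which sets target choice.
hsa-miR-663a: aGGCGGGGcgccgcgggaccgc
hsa-miR-663b: gGUGGCCCggccgugccugagg
hsa-miR-3648: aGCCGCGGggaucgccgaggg
The 3 seeds differ. That of miR-663a was shared with 3 other human microRNAs, and those of miR-663b and miR-3648 with no other among the 2351 distinct mature sequences in the table. All are rich in G and C, with 90.9% for miR-663a, 81.8% for miR-663b and 81.0% for miR-3648 against a median of 52.2%. The dinucleotide CG occurred 5 times in miR-663a, 4 times in miR-3648 and 2 times in miR-663b, against a median of 0. Despite the shared name, miR-663a and miR-663b had no identical run longer than 4 bases, while miR-663a and miR-3648 shared a run of 8.

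The hairpin of MIR663B is shown to look for CUAAC and UAAC, forms of the sequence that QKI proteins bind. Other forms were not searched. No hairpin was matched for the other microRNA rows, so nothing is read for MIR663A, MIR3687 or MIR3648. The mature microRNA is in capitals.
MIR663B hairpin: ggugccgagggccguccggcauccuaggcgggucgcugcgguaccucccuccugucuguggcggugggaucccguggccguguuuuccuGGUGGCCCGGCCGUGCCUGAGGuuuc
Neither CUAAC nor the shorter UAAC, which is part of it, was found on either strand of these 115 bases. Of the 1562 human hairpins in the table, 6.53% held CUAAC and 22.9% held UAAC on either strand. On the sense strand alone these were 3.46% and 12.5%.

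Values are TPM, a length-normalised share of each library scaled to a total of 1000000, which keeps no read depth. In bulk libraries, fewer cells with an RNA and less of it per cell cannot be told apart. The inputs were dominated by 7SL RNA, at 84.6% and 79.7% of the TPM against 39.8% and 43.4% in Flag-RIP. Synthetic ERCC spike-ins took 2.78% and 3.89% in the inputs and 18.9% and 25.6% in Flag-RIP. At a TPM of 1 or more there were 6117 and 7803 genes per input library and 11970 and 12098 per Flag-RIP library. QKI itself, the tagged protein's gene, had 3.83 and 5.85 TPM in input and 60.7 and 42.0 TPM in Flag-RIP, a change after the scaling below of 1.85 log2 units (limma adjusted p = 7.7e-04). Of 10 osteoblast and mesenchymal markers, COL1A1, SPARC and VIM were at 1 TPM or more in both inputs and IBSP was listed at 0. Their summed level was 231 and 314 TPM in the inputs and 883 and 657 TPM in Flag-RIP. Of 4 epithelial markers only KRT18 reached 1 TPM in both inputs, and of 3 blood markers none did. The part of these differences in the results was not tested. Because the whole distribution lay higher in Flag-RIP, log2(TPM + 1) values were shifted to a common library median. Differences after this shift are called centred, and the shift between the groups was 1.32 log2 units.

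RNA45S5, the precursor row, was among the most abundant rows of every library. It had 3529 and 9215 TPM in the inputs and 11900 and 13983 TPM in Flag-RIP, which ranked it 7 in both inputs and 5 in both RIP libraries. Both RIP values lay above both inputs, and the means were 6372 ± 4020 and 12941 ± 1473 (SD, n = 2). The RIP mean was 2.03 times the input mean, and the middle value of that ratio was 3.31 for the 10371 tested genes with input above 0. For the 99 genes with at least 100 TPM in both inputs, the middle value was 1.17. After centring the groups overlapped, with a difference of -0.14 log2 units against a replicate SD of 0.52. Its direction depended on the scale: 1.18 as deposited, -1.57 relative to the spike-ins, 0.51 if 5 was added before the log and 0.42 if low genes were kept. It also turned to 0.35 without input replicate 2 and to 0.015 without Flag-RIP replicate 1. Both RIP libraries above both inputs was the pattern of 96.7% of tested genes as deposited.

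The MIR3648 rows, of which MIR3648-1 lies in the spacer of a precursor gene, overlapped between the groups as deposited and were lower after centring. Both copies, MIR3648-1 and MIR3648-2, carried the same numbers: input 934 and 1938 TPM, Flag-RIP 1452 and 1402 TPM. Both RIP values lay between the inputs, and the means were 1436 ± 710 and 1427 ± 35.4 (SD, n = 2). After centring the difference was -1.23, with both RIP values below both inputs, as for 47.3% of tested genes. The values as deposited differed by 0.085 log2 units. How reads were divided between the copies is not known, and they are counted as 1 measurement.

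MIR663A, a row among the most abundant of the inputs, was far lower after precipitation. It had 2288 and 972 TPM in the inputs, ranks 8 and 13 among all genes, and 5.62 and 5 TPM in Flag-RIP, ranks 5289 and 5513. The RIP values lay far below both inputs, and the input mean was 307-fold higher than the RIP mean. The centred difference was -9.20 log2 units with a replicate SD of 0.81, and -7.89 as deposited. Its host gene MIR663AHG, which spans 22215 bases against 93 for MIR663A, had 0.23 and 0.81 TPM in the inputs and 1.48 and 2.69 TPM in Flag-RIP, and its centred difference of -0.30 did not pass (SE 0.23, limma adjusted p = 0.32). It was -0.62 without Flag-RIP replicate 2 (limma adjusted p = 0.048) and 0.028 without Flag-RIP replicate 1. In every fit without 1 library, the remaining library of that group is assumed to vary like the other group, so such a p holds no spread of its own group. The host row was above both inputs as deposited, and the difference between the rows was not tested. TPM of a row as short as MIR663A depends on the length correction, whose part in these values was not tested.

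MIR3687-1 and MIR3687-2 had identical values and were listed at 0 in both RIP libraries. Their inputs were 793 and 149 TPM, ranks 14 and 76. A value of 0 in this table may be a failed estimate, and no fold is given. On the log2(TPM + 1) scale the centred difference was -9.75, with a replicate SD of 1.40 that came from the inputs. Both RIP libraries below both inputs was seen as deposited for 0.845% of the 10415 tested genes and after centring for 47.3%. Since the set was picked on this comparison, nothing is read from these shares for MIR663A and MIR3687.

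MIR663B, the row beside an rRNA pseudogene, was low throughout. It had 0.72 and 2.26 TPM in the inputs and 2.90 and 1.49 TPM in Flag-RIP. The groups overlapped as deposited, with means of 1.49 ± 1.09 and 2.20 ± 1.00 (SD, n = 2), and the centred difference was -0.92. ANKRD30BL, whose span contains it, was lower still, at 0.07 and 0.06 TPM in the inputs and 0.38 and 0.41 TPM in Flag-RIP. So of the 6 microRNA rows, 3 were lower in Flag-RIP both as deposited and after centring, those of MIR663A and MIR3687. These are 2 measurements once identical rows are counted once.

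**Figure D1:**
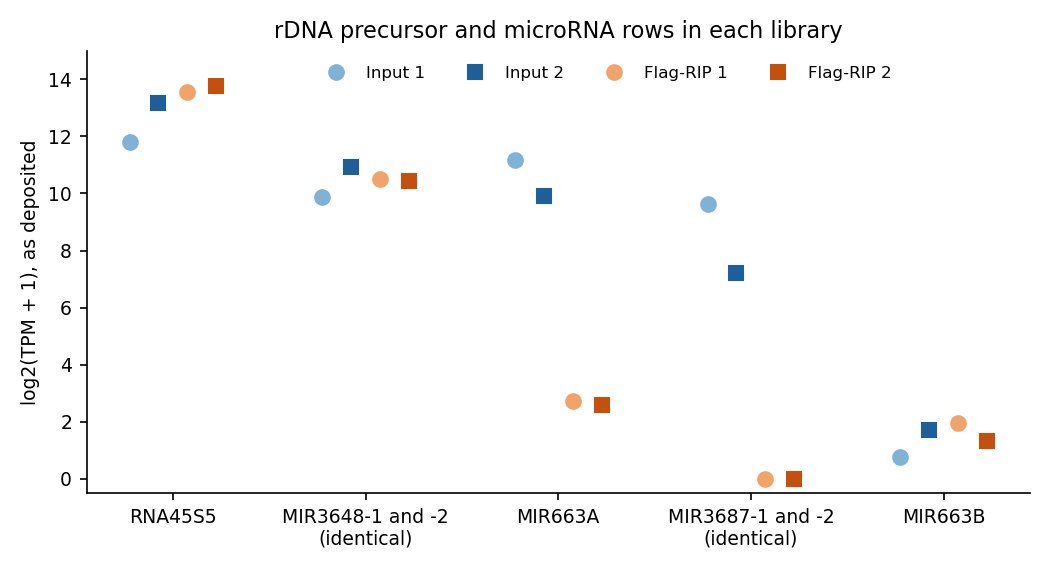
TPM of the precursor row and the microRNA rows in each of the 4 libraries, on the log2(TPM + 1) scale as deposited; circles are replicate 1 and squares replicate 2, blue for input and orange for Flag-RIP. RNA45S5 is higher in both RIP libraries, MIR3648 overlaps between the groups, and MIR663A and MIR3687 drop to 5.62 TPM or less.

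Which rows made up the microRNA signal differed between the groups. The 6 rows together had 5741 and 5149 TPM in the inputs and 2912 and 2810 TPM in Flag-RIP. In input replicate 1, MIR663A gave 39.8% of that sum, MIR3648 32.5% and MIR3687 27.6%. In input replicate 2 the shares were 18.9%, 75.3% and 5.79%. In Flag-RIP, MIR3648 gave 99.7% and 99.8%. The summed rows differed by -2.24 log2 units after centring and by -2.61 with identical rows counted once. They held 84.0% and 76.9% of the TPM of all microRNA precursor rows in the inputs, and 29.7% and 37.2% in Flag-RIP.

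Ratios within a library do not depend on how libraries are scaled. Per 1000 TPM of RNA45S5, MIR3648-1 had 265 and 210 TPM in the inputs and 122 and 100.2 TPM in Flag-RIP, so both RIP ratios were below both input ratios. MIR663A had 648 and 106 TPM per 1000 in the inputs and 0.47 and 0.36 in Flag-RIP. For MIR3687-1 the input ratios were 225 and 16.2, and Flag-RIP was at 0. MIR663B stayed between 0.11 and 0.25 in all 4 libraries, with overlap. RMRP, the RNA of the nucleolar ribonuclease that cuts the precursor, had 2162 and 1040 per 1000 in the inputs and 243 and 236 in Flag-RIP. SNORD3A, a row of the small nucleolar RNA U3, was also lower, with 4809 and 2896 in the inputs and 2224 and 2510 in Flag-RIP. The mature 28S row RNA28S5 overlapped, with 1.33 and 0.63 in the inputs and 0.57 and 0.67 in Flag-RIP. How many of all tested genes had both RIP ratios below both input ratios was not counted.

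**Figure D2:**
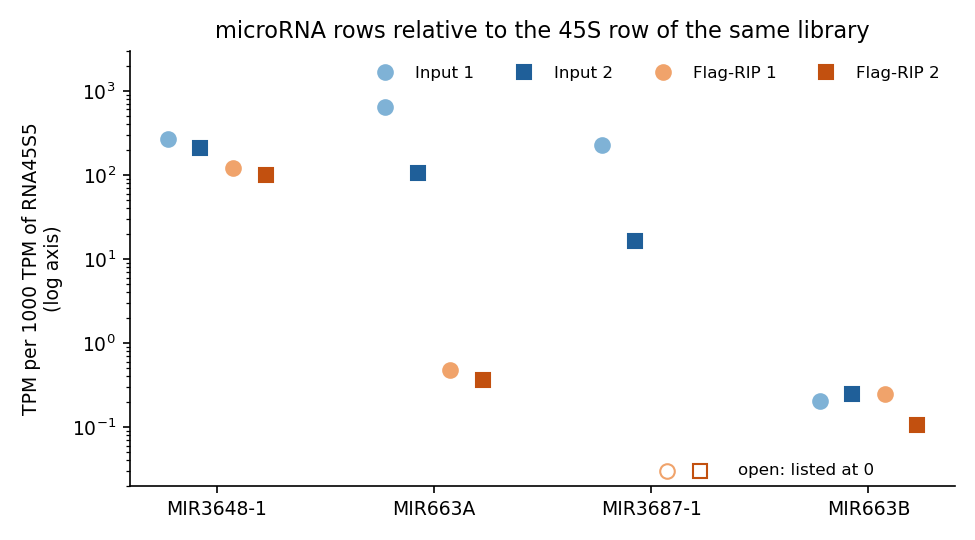
TPM of 1 copy of each microRNA row per 1000 TPM of RNA45S5 in the same library, on a log axis; circles are replicate 1 and squares replicate 2, blue for input and orange for Flag-RIP, and open symbols mark rows listed at 0. MIR3648-1 lies at 265 and 210 in input and at 122 and 100.2 in Flag-RIP, while MIR663A goes from 648 and 106 to under 1.

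The inputs disagreed with each other on these rows more than on most tested genes, and in opposite directions. RNA45S5 was 2.61-fold and MIR3648 2.08-fold higher in input replicate 2 than in replicate 1, while MIR663A was 2.35-fold and MIR3687 5.31-fold higher in replicate 1. After centring, replicate 2 minus replicate 1 was 0.99 for RNA45S5, 0.66 for MIR3648, 0.53 for MIR663B, -1.63 for MIR663A and -2.80 for MIR3687. The median size of this difference over tested genes was 0.12. Of the tested genes outside the set, 0 differed between the inputs by more than MIR3687, 2 by more than MIR663A and 14 by more than RNA45S5. In Flag-RIP the same difference was 0.31 for RNA45S5, 0.027 for MIR3648, -0.065 for MIR663A and -0.57 for MIR663B, where the median size was 0.15. The size of each loss in Flag-RIP moved with the input used. Centred, MIR663A differed by -8.39 without input replicate 1 and by -10.0 without replicate 2, and MIR3687 by -8.35 and -11.1. Spike-in share, gene number and 7SL share also differed between the inputs, and their part in this was not tested.

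**Figure D3:**
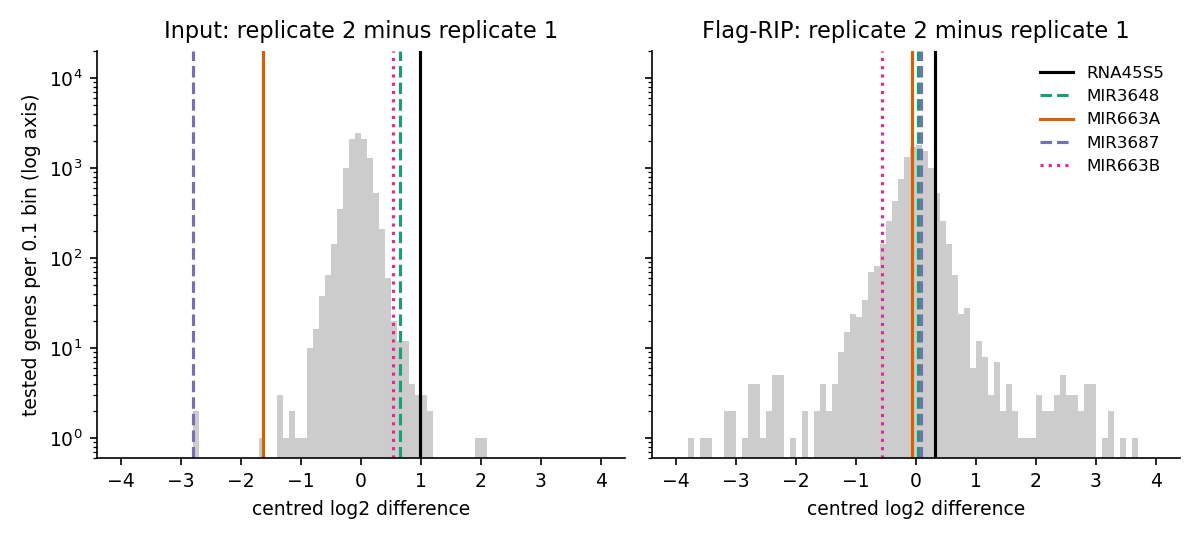
Centred log2 difference between replicate 2 and replicate 1 over the 10415 tested genes (grey, in bins of 0.1, log axis), for input on the left and Flag-RIP on the right, with the members as vertical lines. In input, MIR3687 at -2.80 and MIR663A at -1.63 stand at the left edge and RNA45S5 at 0.99 at the right edge. In Flag-RIP, MIR663A and RNA45S5 lie inside the distribution. MIR3687 was listed at 0 in both RIP libraries, so its line there shows only the difference in library shift.

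Among the 99 genes with at least 100 TPM in both inputs, the median ratio of Flag-RIP to input was 1.17 and 42 had a ratio below 1. In likeness over the 4 libraries, measured as the root mean square distance between row-centred log2 values, members were compared only with genes outside the set. For MIR663A the closest of these were the histone gene HIST2H2BF at 3.05, ATP5E, a subunit of the ATP synthase, at 3.05 and the histone gene HIST1H4K at 3.15, against a median distance of 4.58. For RNA45S5 they were MIR762 at 0.077, STAG3L5P at 0.092 and SNORD83B at 0.16, with a median distance of 0.43.

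The remaining rRNA rows held little or nothing. Of 20 such rows, 18 were listed at 0 in all 4 libraries, including RNA18S5, RNA5-8S5 and all but RNA5S9 among 17 genes of 5S rRNA. RNA28S5, the mature 28S row, had 4.68 and 5.82 TPM in the inputs and 6.81 and 9.33 TPM in Flag-RIP. Relative to the median it was lower (-0.79, SE 0.17, limma adjusted p = 0.0091), a call lost without input replicate 1 (-0.72, limma adjusted p = 0.11) and without input replicate 2 (-0.85, limma adjusted p = 0.054). RNA5S9 had 0.09 and 0.14 TPM in the inputs and 2.21 and 3.17 TPM in Flag-RIP, and at 0.40 did not pass (SE 0.22, limma adjusted p = 0.18). With the lower pseudocount of 0.1 it passed at 1.97 (limma adjusted p = 0.0094). It was also called higher as deposited (1.71), without the 20 most abundant rows (2.69), scaled to the spike-ins (0.65) and with no filter (0.95). Adding 5 before the log gave -0.082, which did not pass. Since 28S sequence is part of the precursor, the division of reads between RNA28S5 and RNA45S5 is uncertain.

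RNAs that take part in cutting the precursor were called lower or did not pass. Over all 10415 tested genes, 16.4% were called higher and 24.4% lower after centring. Of 16 such RNAs in the file 11 were tested, of which 0 were higher and 4 lower, with a median of -0.78 against -0.11 over all tested genes. As deposited, 6 were higher and 1 lower, against 9608 and 33 of all 10415 tested genes. After centring, fewer were called when either input replicate was left out. RMRP fell by 2.78 (SE 0.24, limma adjusted p = 5.5e-04), from 7631 and 9584 TPM to 2896 and 3306 TPM. It was the only RNA of the list called lower on both scales. Among genes outside the set with at least 100 TPM in both inputs, RMRP had the lowest ratio of Flag-RIP to input as deposited, 0.360. RPPH1 at 0.367 and the 7SL rows RN7SL1 and RN7SL2 at 0.485 and 0.536 came next. Over all 99 genes at that level the median ratio was 1.17 and 42 were below 1, and SNORD3A was at 1.41.

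U3, the small nucleolar RNA needed for the first cuts around the 18S rRNA, was the most abundant of them. Its SNORD3A row had 16975 and 26689 TPM in the inputs and 26471 and 35098 TPM in Flag-RIP, and was lower after centring (-0.80, SE 0.26, limma adjusted p = 0.042). That call was lost without any 1 of input replicate 1, input replicate 2 and Flag-RIP replicate 1 (limma adjusted p of 0.21, 0.28 and 0.17). The direction of SNORD3A also turned as deposited, at 0.52. SNORD3B-1 and SNORD3B-2, with identical values, had 930.4 and 1448 TPM in the inputs and 2068 and 2862 TPM in Flag-RIP, and their -0.25 did not pass (limma adjusted p = 0.48). SNORD3C fell by 1.06 (SE 0.25, limma adjusted p = 0.014), a call lost without input replicate 1 (limma adjusted p = 0.066) or replicate 2 (0.099). SNORD3D was detected in input replicate 1 only, at 1.43 TPM. Reads of these near-identical U3 copies may be divided among them.

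The U17 genes SNORA73A and SNORA73B, also needed for 18S maturation, had 49.7 and 77.5 TPM and 28.5 and 50.1 TPM in the inputs. In Flag-RIP they had 92.0 and 73.7 TPM and 86.9 and 91.0 TPM. SNORA73A fell by 0.92 after centring (SE 0.19, limma adjusted p = 0.0093; 0.052 without input replicate 2), and SNORA73B at -0.11 did not pass (limma adjusted p = 0.69). SNORD118, the U8 RNA needed for 28S maturation, had 0.55 and 1.76 TPM in the inputs and 5.09 and 5.50 TPM in Flag-RIP, and at 0.29 did not pass (limma adjusted p = 0.17). SNORD13 at -0.78, SNORD22 at -0.87 and SNORD14C at -0.27 did not pass (limma adjusted p = 0.13, 0.056 and 0.41). Their values moved with the Flag-RIP library left out. SNORD13 was at -0.098 without Flag-RIP replicate 1 and at -1.46 without replicate 2, SNORD22 at -1.39 and -0.36, and SNORD14C at -0.57 and 0.031. SNORD118 was at 0.37 and 0.20. The fits with 1 Flag-RIP library called SNORD13 without replicate 2 and the other 3 without replicate 1, with all spread taken from the inputs, and no p is given for them. SNORD14A, SNORD14B and SNORD14D stayed under the filter, and SNORD14E was listed at 0.

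The mRNAs of the machinery that transcribes the repeats went both ways. Of 18 tested genes for RNA polymerase I subunits and initiation factors, 3 were higher and 6 lower, with a median of -0.20. Those counts are 16.7% and 33.3%, against 16.4% and 24.4% of all tested genes. POLR2K, a small subunit shared by the 3 nuclear polymerases, rose by 1.01 (SE 0.12, limma adjusted p = 0.0015), from 0.87 and 1.00 TPM to 9.17 and 8.29 TPM. POLR2L, another shared subunit, fell by 1.63 (SE 0.21, limma adjusted p = 0.0018), and ZNRD1, a polymerase I subunit, by 1.01 (SE 0.11, limma adjusted p = 0.0013). UBTF, the factor that holds repeats in an open state, had the highest level of the list, 9.43 and 14.5 TPM in the inputs and 35.2 and 33.6 TPM in Flag-RIP, and at 0.16 did not pass (limma adjusted p = 0.40). As deposited, 15 of the 18 were higher and 0 lower, against 9608 higher and 33 lower of all 10415 tested genes. The centred counts fell without input replicate 1.

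Of 76 tested genes for proteins that cut, modify and assemble the precursor, 3 were higher and 28 lower, with a median of -0.18. Those counts are 3.95% and 36.8%, against 16.4% and 24.4% of all tested genes. The largest changes were in PNO1, a small-subunit assembly factor, which fell by 0.97 (SE 0.14, limma adjusted p = 0.0025), NOP10, a core protein of H/ACA particles, by 0.93 (SE 0.18, limma adjusted p = 0.0070), and EXOSC4, a subunit of the RNA exosome, by 0.90 (SE 0.12, limma adjusted p = 0.0023). The calls of PNO1 and NOP10 were lost without input replicate 1 (limma adjusted p = 0.051 and 0.098), and that of PNO1 without the 20 most abundant rows too (0.13). NPM1, an abundant nucleolar chaperone, had 33.5 and 49.6 TPM in the inputs and 101 and 113 TPM in Flag-RIP and did not pass (0.050, limma adjusted p = 0.85). These counts rest on the scale and on the inputs. As deposited, 70 were higher and 0 lower, against 9608 and 33 of all 10415 tested genes. Scaled to the spike-ins, 0 were higher and 70 lower, against 325 and 6339 of all tested genes. After centring, fewer were called when either input replicate was left out.

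The mRNAs of microRNA processing proteins were more often called higher than lower. Of 14 tested, 6 were higher and 2 lower, with a median of 0.36. Those counts are 42.9% and 14.3%, against 16.4% and 24.4% of all tested genes. ERH, a partner of the Microprocessor, rose most, by 4.24 (SE 0.36, limma adjusted p = 5.5e-04), from 5.81 and 7.24 TPM to 560 and 222 TPM. DGCR8, the partner of Drosha, rose by 0.84 (SE 0.11, limma adjusted p = 0.0021), and the helicase DDX17 by 0.74 (SE 0.16, limma adjusted p = 0.011). The calls of DGCR8 and DDX17 were lost without input replicate 1 (limma adjusted p = 0.053 and 0.10), where 1 of the 14 was higher and 0 lower. Without input replicate 2 the counts were 4 and 1. Scaled to the spike-ins, 1 was higher and 7 lower, against 325 and 6339 of all 10415 tested genes. The median was then -0.57, against -0.68 over all tested genes.

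**Figure D4:**
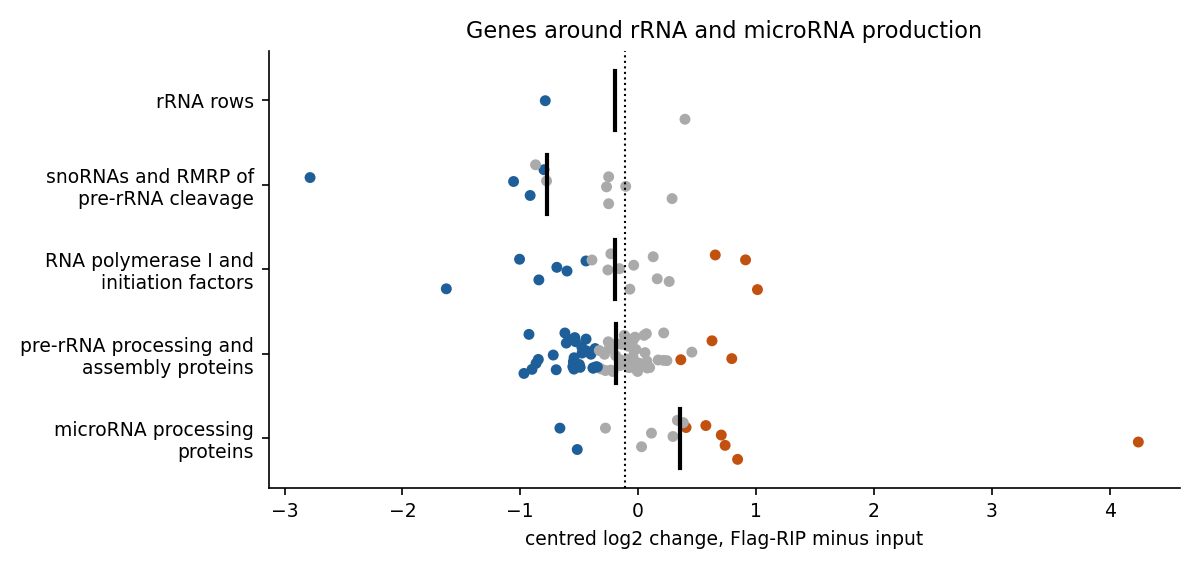
Centred log2 change of each tested gene in 5 gene lists, Flag-RIP minus input; orange and blue points were called higher and lower (limma, adjusted p under 0.05), grey points were not called, black bars are list medians, and the dotted line is the median of all tested genes at -0.11. RMRP at -2.78 and ERH at 4.24 stand apart. Medians of the protein lists are -0.20 for RNA polymerase I, -0.18 for pre-rRNA processing and 0.36 for microRNA processing.

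Most other microRNA precursor rows had no signal. Of 1871 such rows, 1506 were listed at 0 in all libraries and 103 were tested. After centring 17 were higher and 6 lower, with a median of 0.13. Those counts are 16.5% and 5.83%, against 16.4% and 24.4% of all tested genes. As deposited 94 were higher and 2 lower, against 9608 and 33 of all 10415 tested genes. The centred counts rose when either Flag-RIP library was left out and fell without input replicate 1. The 5 with the highest input means were MIR6723, MIR6501, MIR1282, MIR4449 and MIR4721. MIR6723 was the only one near the members in level, with 1017 and 1389 TPM in the inputs and 6316 and 4067 TPM in Flag-RIP, and its 0.77 did not pass (SE 0.27, limma adjusted p = 0.051). It was at 0.50 without Flag-RIP replicate 1 and at 1.05 without replicate 2, where it was called with the spread of the inputs alone. The others had input means of 5.90 to 11.1 TPM. MIR6501 fell by 1.52 (SE 0.17, limma adjusted p = 0.0013), MIR4721 by 1.38 (SE 0.17, limma adjusted p = 0.0015) and MIR4449 by 0.90 (SE 0.28, limma adjusted p = 0.036), while MIR1282 at -0.40 did not pass (limma adjusted p = 0.31). MIR1282 was at 0.076 without Flag-RIP replicate 1 and at -0.87 without replicate 2, where it was called with the spread of the inputs alone. The call of MIR4449 was lost without input replicate 1 or replicate 2 (limma adjusted p = 0.17 and 0.16). Of the microRNAs that share the seed of miR-663a, MIR1908 had 0.22 and 0.33 TPM in the inputs and 1.05 and 2.15 TPM in Flag-RIP, and MIR6787 was listed at 0. MIR6724-1, a microRNA gene 3066 bases from MIR3648-1 and outside RNA45SN2, had 0.08 and 0.06 TPM in the inputs and 1.49 and 3.26 TPM in Flag-RIP, and at 0.29 did not pass (SE 0.30, limma adjusted p = 0.47).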

How the data were processed

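RNA of 2 input and 2 Flag-RIP libraries was sequenced. The authors deposited 1 table of TPM values with 1 column per library, made with STAR and RSEM 1.2.31 on GRCh38, per the submitters' processing notes. Not given in the sources used here: annotation, strand setting and the treatment of reads matching several genes. TPM of genes shorter than a fragment depends on the length correction, and read depth is unknown.

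No fit tested the 92 spike-in rows, which stay in the totals. Their summed TPM set the library scale in the alternative scaled to the spike-ins. The 10415 genes whose mean TPM reached 1 were fitted with limma 3.58.1 in R 4.3.3 (lmFit, eBayes with a trend) on log2(TPM + 1), each library shifted to a common median, two-sided, with Benjamini-Hochberg adjustment over all tested genes and a threshold of 0.05. The scale understates changes of low genes. Alternatives were other scalings, pseudocounts, filters and variance settings, each library left out, and a replicate block. The procedure was tested on simulated data. The members and lists were chosen with earlier results of these data known. Named genes were the members, all rRNA and cleavage RNAs, the 3 largest called changes and the highest level of each other list, the 5 highest other microRNA rows, and the 3 rows most like RNA45S5 and MIR663A. The locus neighbours and seed partners were added after values were seen.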

Additional observations from a re-analysis of the deposited data

How the results depend on the processing

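After centring 1703 genes were higher and 2545 lower. These counts were 9608 and 33 as deposited, 325 and 6339 relative to the spike-ins, 3748 and 730 if the 20 top rows were removed first, 5590 and 10238 if low genes were kept, 1025 and 1171 if the mean TPM had to reach 5, and 332 to 2294 and 322 to 3184 when 1 library was left out, lowest without input replicate 1. With 1 Flag-RIP library the spread came from the inputs alone, so these counts say nothing of variation in Flag-RIP. With the replicate number as a block they were 1720 and 2457. Same-numbered libraries deviated together at r = -0.067 over genes. With 2 libraries per group, crossed pairs must give the opposite value, 0.067. Whether same-numbered libraries came from the same material cannot be told from this. Under the block, of 36 named genes 1 call was lost (SNORD3A, limma adjusted p = 0.15) and 2 were gained. The difference of RNA45S5 was 1.18 as deposited, -1.57 relative to the spike-ins, 0.51 if 5 was added before the log and 0.42 if low genes were kept. It has no value without the 20 most abundant rows, of which it is one. That of the summed microRNA rows was -0.93 as deposited, -3.67 scaled to the spike-ins, -2.65 and -1.59 with pseudocounts of 0.1 and 5, -1.69 with no filter and -2.61 with identical rows counted once, and it was below 0 in all alternatives run. MIR663A ranged from -10.3 to -7.85 and MIR3687 from -13.5 to -6.80 over all alternatives.

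Signs that turned, where the change passed in either fit, were mostly as deposited: RNA28S5 0.53, SNORD3A 0.52, SNORD3B-1 and SNORD3B-2 1.07, SNORD3C 0.26, SNORD14C 1.05, SNORA73A 0.40, SNORA73B 1.21, ZNRD1 0.31, NOP10 0.39, PNO1 0.35, EXOSC4 0.42, MIR1282 0.92, MIR4449 0.42, MIR663AHG 1.02, MIR762 1.14, STAG3L5P 1.13 and SNORD83B 1.18. Scaled to the spike-ins UBTF was -1.13, NPM1 -1.33, DGCR8 -0.047 and DDX17 -0.55. With no filter SNORD3B-1 and SNORD3B-2 were 0.31, and without the 20 most abundant rows SNORD14C was 0.85. The cause of these shifts was not tested.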
